A study of Mus musculus with 4 samples.

Results

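Porcn, Wls and Notum are 3 genes, of 33697 features counted, that act on Wnt proteins between their synthesis and their receptors. They were followed across the cells of mouse trachea and were chosen by the level of Porcn RNA in the dorsal and ventral libraries of these data. That regional difference selected the set, so it is described here and not tested. Porcn (ENSMUSG00000031169) lies on chromosome X, Wls (ENSMUSG00000028173) on chromosome 3 and Notum (ENSMUSG00000042988) on chromosome 11.

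A Wnt protein carries a lipid, palmitoleate, that it needs in order to leave the cell and to bind its Frizzled receptor. Porcn encodes the acyltransferase of the endoplasmic reticulum that attaches this lipid, and Wls encodes the carrier that takes the lipid-bearing Wnt to the cell surface and is itself brought back by the retromer. Notum encodes a secreted esterase that removes the lipid outside the cell and so inactivates Wnt, and in other tissues it is itself a target of Wnt signalling.

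Single-cell RNA was counted in 4 libraries, 1 for each of 4 groups: knockout dorsal, knockout ventral, control dorsal and control ventral trachea. Knockout mice had both Ctnnb1 alleles floxed (Ctnnb1-fl/fl) and control mice had 1 (Ctnnb1-fl/+), Ctnnb1 being the gene of beta-catenin, the transducer of canonical Wnt signals. All mice of both genotypes carried P63-CreER, a tamoxifen-activated Cre made in P63-expressing basal cells, with Ki67-lsl-Dre and Rosa26-rsr-GFP, by which Cre allows a Ki67-driven Dre that in turn allows GFP. All received tamoxifen, and tracheae were taken 10 days later, split into a dorsal and a ventral piece under a stereomicroscope and dissociated with papain. The Cre acts in P63-positive cells and their progeny, so fibroblasts are not meant to be deleted, and the controls also lose 1 Ctnnb1 allele in these cells. The labels do not state the number, sex or age of the mice behind each library. With 1 library per group there was no replicate spread and no test could be run: every interval is a 95% interval of counting error only, and region and genotype cannot be told apart from the library that carries them.

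The libraries held 6744 to 13962 barcodes and 144851737 to 286711618 UMIs (unique molecules), and 6032 knockout dorsal, 6545 knockout ventral, 12544 control dorsal and 9364 control ventral cells were kept. Any pair of libraries shared 17 to 43 barcodes. Cells were sorted by marker genes into 5 gates: basal (Trp63 and Krt5), hillock (Krt13 and Krt4), secretory (Scgb1a1), ciliated (Tmem212) and fibroblast (Col1a2). Sums of 8 further markers per type were compared across gates in CPM, a gene's UMIs per 1000000 UMIs of all cells summed. Ciliated markers had 7400 to 8555 CPM in the ciliated gate and at most 67.5 in the others. The other epithelial gates were less cleanly set apart. Secretory markers reached 45886 to 62768 CPM in the basal gate and 69984 to 203781 in the hillock gate, against 240010 to 344091 in the secretory gate. Hillock markers had 7963 in the knockout and 10624 in the control dorsal basal gate, against 21284 and 25456 in the dorsal hillock gates. Basal markers had 5775 in the knockout and 6790 in the control dorsal basal gate, below the 7344 and 9214 of the dorsal hillock gates. The hillock gate held 8 cells in knockout ventral trachea, so no ratio is given with that library. Ctnnb1 itself stood at 208 CPM of basal-gate cells in knockout dorsal, 229 in knockout ventral, 283 in control dorsal and 284 in control ventral trachea. The knockout over control ratio was 0.734 dorsally and 0.808 ventrally in the basal gate, and 0.747 and 0.865 in the fibroblast gate, where no deletion is meant. The exons that were floxed are not given and the tags come from 5′ ends, so these counts do not check the deletion.

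Porcn was high in dorsal epithelium of either genotype and low in ventral epithelium, and it was near the same low level in fibroblasts of all 4 libraries. In the basal gate it stood at 377 CPM (370.2 to 385) in knockout dorsal and 52.9 (49.6 to 56.3) in knockout ventral trachea. In control trachea the basal gate had 409.7 (403 to 416) dorsally and 41.7 (39.4 to 44.1) ventrally. Neither dorsal library came near a ventral one. The dorsal over ventral ratio was 7.14 (6.69 to 7.63) in knockout and 9.84 (9.28 to 10.4) in control basal-gate cells. Of the genes tested in the basal gate (at least 20 CPM in 1 library of a pair), 1.27% of 6445 were at least 2-fold higher dorsally in knockouts and 2.15% of 6592 in controls, and 0.918% of 6209 were so in both genotypes. Only 9 genes in knockouts and 7 in controls had a higher ratio than Porcn. These ranks follow from how the gene was chosen and are given as a description.

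The regional gap in Porcn ran through every epithelial gate, with a smaller ratio outside the basal gate. In secretory-gate cells Porcn stood at 218 CPM in knockout dorsal, 47.2 in knockout ventral, 282 in control dorsal and 57.7 in control ventral trachea. The dorsal over ventral ratios were 4.61 (4.33 to 4.92) in knockouts and 4.89 (4.63 to 5.16) in controls, where 1.87% and 2.02% of genes tested were at least 2-fold higher dorsally. Scgb1a1 alone took 131428 to 201973 CPM of this gate, which lowers the share left for every other gene there. Different clusters filled the gate: one led by Scgb1a1, Hp and Bpifa1 held 52.1% of it in knockout dorsal, one led by Itln1, Sftpa1 and Reg3g held 55.7% in knockout ventral, one led by Alox15, Ces1f and Cyp2a5 held 37.1% in control dorsal, and one led by Sftpa1, Reg3g and Scgb3a1 held 47.1% in control ventral trachea. In ciliated-gate cells Porcn had 79.8 CPM in knockout dorsal, 35.5 in knockout ventral, 125 in control dorsal and 34.3 in control ventral trachea. The ciliated ratios were 2.25 (1.86 to 2.72) in knockouts and 3.65 (3.28 to 4.07) in controls, against 1.05% and 0.867% of genes tested. Hillock-gate cells, the stratified luminal cells that stain for Krt13, had 381 CPM in knockout dorsal, 303 in control dorsal and 84.4 in control ventral trachea, and 125 in the 8 knockout ventral cells. The control dorsal over ventral ratio in this gate was 3.59 (3.18 to 4.07), with 4.77% of genes tested at least 2-fold higher dorsally. A cluster led by Serpinb2, Krt13 and Ly6g6c held 35.8% of this gate in knockout dorsal, 68.6% in control dorsal and 25.9% in control ventral trachea, where the Alox15 cluster held 29.3% and a basal cluster led by Krt17, Krt5 and Nrg1 held 22.4%.

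Fibroblast-gate cells set the low end. Porcn stood there at 11.6 CPM (10.2 to 13.2) in knockout dorsal, 14.8 (13.3 to 16.5) in knockout ventral, 14.9 (13.4 to 16.6) in control dorsal and 12.1 (11 to 13.4) in control ventral trachea. The fibroblasts of the dorsal libraries were not the higher ones as a group, although Porcn over all cells of those libraries was 228 and 274 CPM against 28.7 and 29.8 in the ventral ones, knockout before control. Macrophage-like clusters, which lack the epithelial programme, had 7.76 CPM in knockout dorsal, 4.72 in knockout ventral, 10.1 in control dorsal and 7.21 in control ventral trachea.

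Within each library the gates fell into an order. In control dorsal trachea Porcn was highest in the basal gate, then in the hillock, secretory, ciliated and fibroblast gates, with no overlap of neighbouring intervals. In knockout dorsal trachea the hillock and basal gates (381 and 377 CPM) did not differ beyond their intervals, and the others followed as in the control. In control ventral trachea the hillock gate led, the secretory gate came next, and the basal and ciliated gates (41.7 and 34.3) stood above the fibroblasts. In knockout ventral trachea the basal and secretory gates (52.9 and 47.2) had overlapping intervals. Secretory-gate cells held 38.6% of a library's Porcn UMIs in knockout dorsal, 25.7% in knockout ventral, 43.3% in control dorsal and 25.1% in control ventral trachea, and basal-gate cells held 30.6%, 25%, 22.5% and 21.6% in the same libraries.

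**Figure D1:**
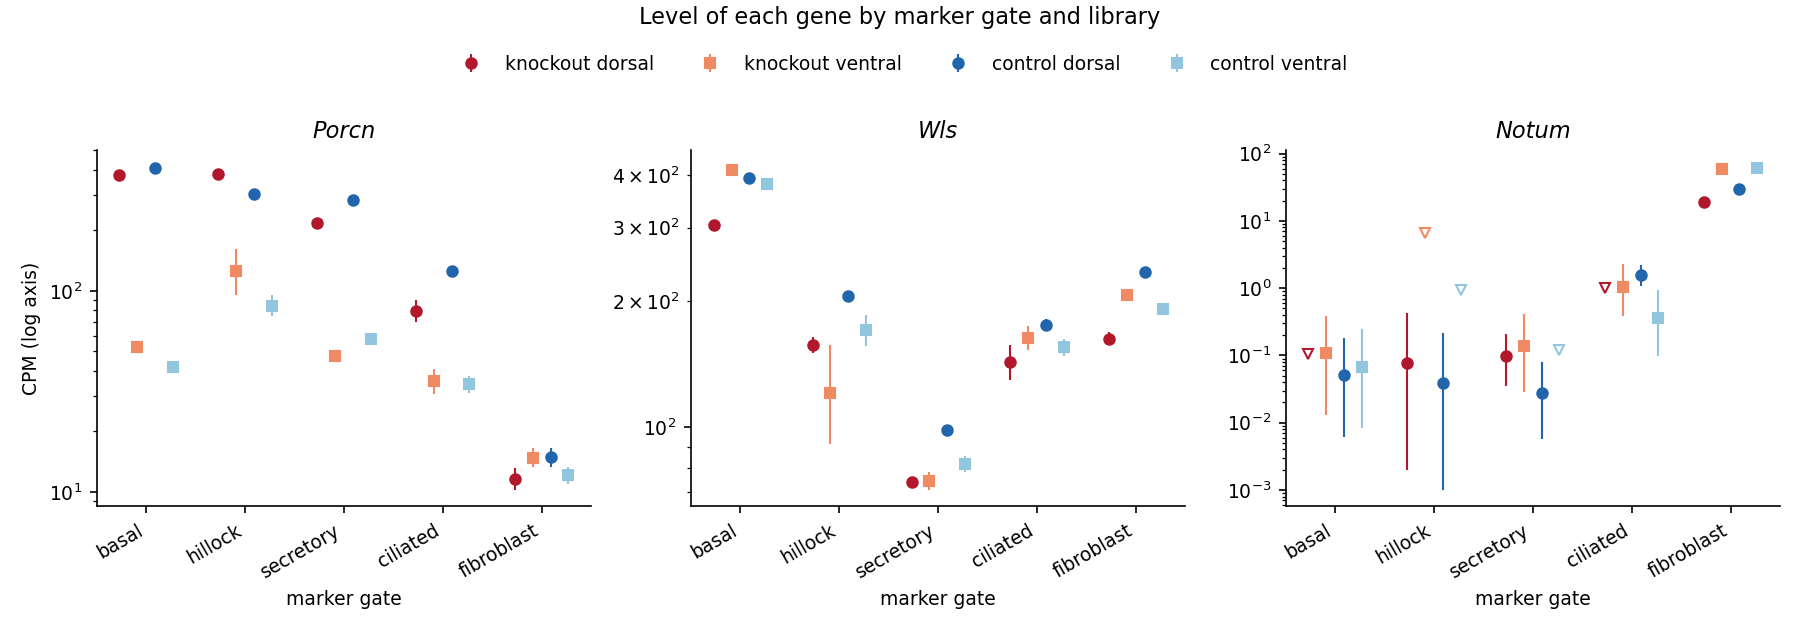
Level of Porcn, Wls and Notum (CPM, log axis) in the 5 marker gates of the 4 libraries. Points are the level of all cells of a gate summed, and lines are 95% Poisson intervals. Open triangles mark a count of 0 and are drawn at the CPM of 3 UMIs. Porcn separates dorsal (circles) from ventral (squares) libraries in the 4 epithelial gates but not in fibroblasts, Wls stays between 74.1 and 411 CPM, and the Notum level exceeds 2 CPM in the fibroblast gate alone.

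The gap was one of most cells, not of a few. To compare cells of unequal depth, each was thinned to 8000 UMIs, and shallower cells (12 to 113 per library in the basal gate) were left out. At least 1 Porcn UMI was then found in 78.7% of basal-gate cells (76.2 to 81.0) in knockout dorsal and 23.6% (20.6 to 26.8) in knockout ventral trachea. In control trachea the shares were 82.6% (80.8 to 84.2) dorsally and 20.6% (18.3 to 23.0) ventrally. Before thinning they were 89.5% in knockout dorsal, 44.2% in knockout ventral, 90.4% in control dorsal and 41.5% in control ventral trachea, at median depths of 20400, 23708, 15530 and 22842 UMIs. Fibroblast-gate cells had a thinned share of 9.52% in knockout dorsal, 11.9% in knockout ventral, 11.3% in control dorsal and 9.33% in control ventral trachea (unthinned 13.1%, 15.6%, 12.8% and 14.5%, at median depths of 9289 to 12441.5 UMIs). The ventral basal shares thus stood above the fibroblast shares, and both dorsal basal shares stood far above both.

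The spread between dorsal basal cells was wide. The thinned Porcn count had a median of 2 per cell in knockout dorsal, 0 in knockout ventral, 3 in control dorsal and 0 in control ventral trachea. Counts of 5 or more were found in 23.6% of knockout dorsal, 2.68% of knockout ventral, 27.7% of control dorsal and 1.20% of control ventral basal-gate cells. Its variance was 2.91 times its mean in knockout dorsal, 4.28 times in knockout ventral, 2.67 times in control dorsal and 2.37 times in control ventral trachea, where pure counting gives 1. For Wls in the same cells this ratio was 1.34, 1.44, 1.48 and 1.66, and its distributions overlapped almost wholly between the libraries.

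**Figure D2:**
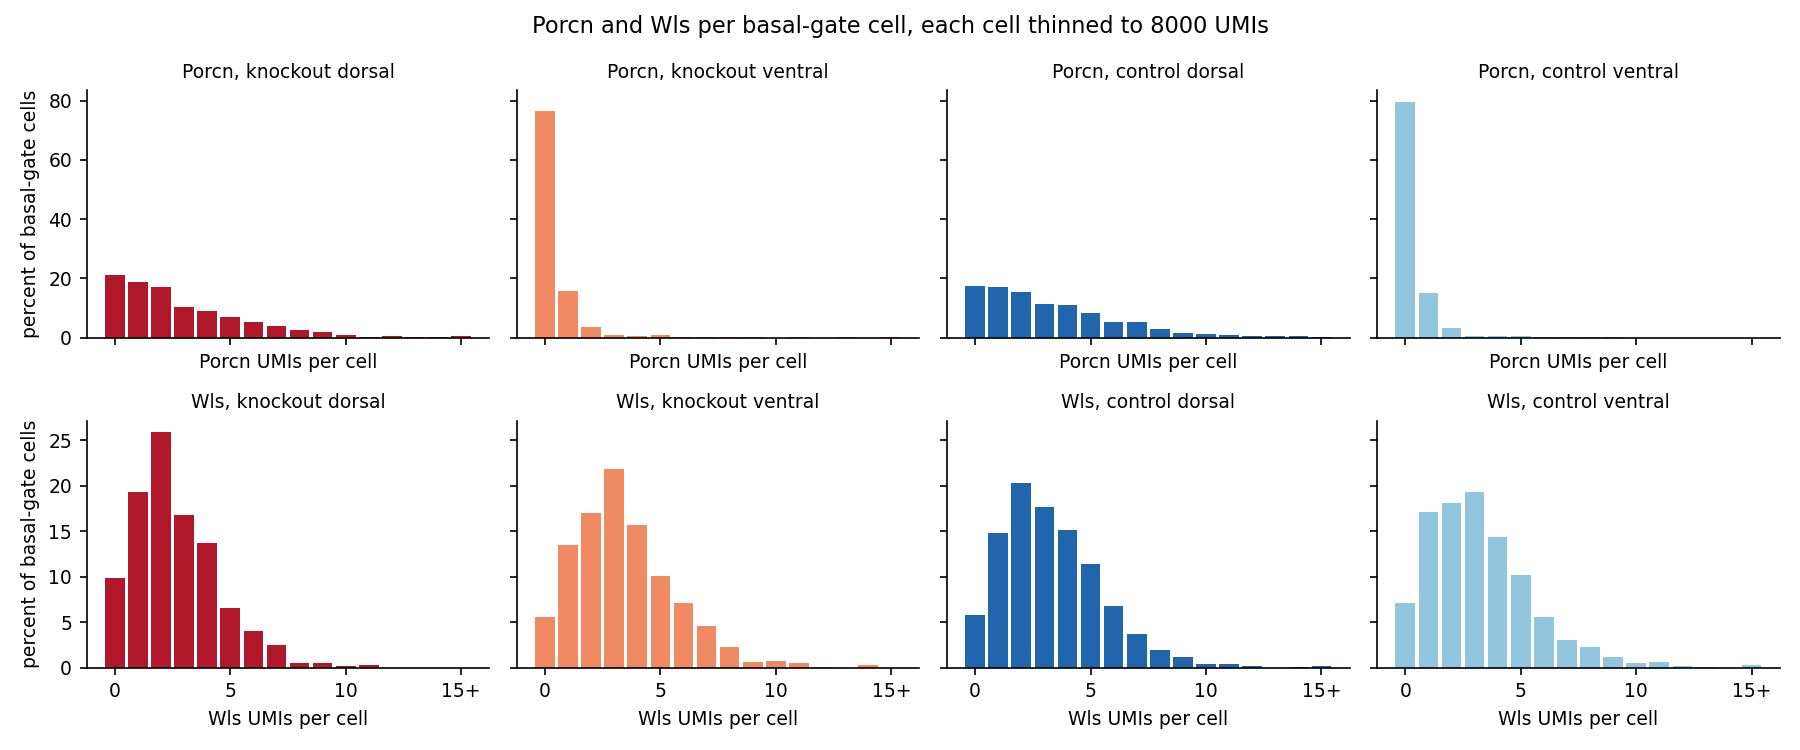
Percent of basal-gate cells (vertical axis) with each number of Porcn (top) and Wls (bottom) UMIs (horizontal axis, 15 and more together) after thinning every cell to 8000 UMIs, 1 panel per library. In ventral libraries 76.4% of knockout and 79.4% of control cells held no Porcn UMI, against 21.3% and 17.4% in dorsal ones, while the Wls panels resemble each other.

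The cells inside the basal gate were not the same mix in each library. A cluster led by Krt17, Krt5 and Nrg1 held 14.9% of the gate in knockout dorsal and 66.5% in control dorsal trachea. A cluster led by Defb1, B4galnt2 and Dapl1 held 80.3% in knockout dorsal, 10.8% in knockout ventral and 17.8% in control dorsal trachea, and a cluster led by Apoc1 and Gdpd2 held 81.3% in knockout ventral and 83.5% in control ventral trachea. Porcn followed both the cluster and the region. In the Defb1 cluster it stood at 372 CPM in knockout dorsal and 77.1 in knockout ventral trachea, and at 406 in control dorsal and 71.5 in control ventral trachea, giving dorsal over ventral ratios of 4.83 (4.18 to 5.60) and 5.68 (4.98 to 6.51). In the Apoc1 cluster the control levels were 157 dorsally and 31.7 ventrally, a ratio of 4.95 (4.52 to 5.42). In the Krt17 cluster the gap was smallest, with 436 CPM in knockout dorsal, 334 in the 56 cells of knockout ventral, 441 in control dorsal and 176 in the 96 cells of control ventral trachea. Its ratios were 1.30 (1.18 to 1.45) in knockouts and 2.51 (2.28 to 2.76) in controls. With only the basal-gate cells of that cluster the control ratio was 2.02 in place of 9.84.

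The Defb1 cluster, present in number in both dorsal libraries, had nearly equal Porcn there, at 0.916 (0.884 to 0.95) of the control level in the knockout. A secretory cluster led by Alox15, Ces1f and Cyp2a5 had as much, 459 CPM in knockout dorsal and 426 in control dorsal trachea, with 178 in 22 knockout ventral and 165 in 57 control ventral cells. A secretory cluster led by Itln1, Sftpa1 and Reg3g had less, at 112 CPM in knockout dorsal, 32.4 in knockout ventral, 139 in control dorsal and 43.8 in control ventral trachea. Club-type secretory cells (Scgb1a1 above Scgb3a1) stood at 220, 58.8, 284 and 66.5 CPM in knockout dorsal, knockout ventral, control dorsal and control ventral trachea. Mucous-type cells (Scgb3a1 above Scgb1a1) had 21.9 in knockout ventral and 25.2 in control ventral trachea, and there were only 8 and 30 of them in the knockout dorsal and control dorsal libraries.

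Marker sums that differed between regions in the basal gate are given beside the Porcn ratios. The 8 hillock markers, all detected in each library, summed to 7963 CPM in knockout dorsal, 4915 in knockout ventral, 10624 in control dorsal and 5064 in control ventral trachea. The 8 proliferation genes summed to 103 in knockout dorsal, 41.0 in knockout ventral, 213 in control dorsal and 41.8 in control ventral trachea. The 10 handling genes (Fos, Jun, heat shock and the like) summed to 12702 in knockout dorsal, 21741 in knockout ventral, 14617 in control dorsal and 21328 in control ventral trachea. The part of these genes in the Porcn levels was not tested. Basal-gate cells with UMIs of fewer than 2 proliferation genes had 381 CPM of Porcn in knockout dorsal, 52.7 in knockout ventral, 421 in control dorsal and 42.7 in control ventral trachea. Dividing basal-gate cells had 319.5, 58.0, 263 and 15.4 in the same libraries, from 34, 15, 120 and 34 cells.

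Cells with the GFP reporter had somewhat more Porcn than cells without it. Basal-gate cells with at least 5 eGFP UMIs held 408 CPM of Porcn in knockout dorsal, 63.6 in knockout ventral, 421 in control dorsal and 41.2 in control ventral trachea. Those with no eGFP UMI held 317, 40.2, 369 and 31.1 in the same libraries, at lower median depths (17573 against 23059 UMIs in knockout dorsal trachea). Among thinned cells the shares with a Porcn UMI were 79.4% of reporter-high against 74.1% of reporter-free cells in knockout dorsal, 25.5% against 25.2% in knockout ventral, 84.4% against 76.4% in control dorsal and 19.5% against 16.2% in control ventral trachea. Wls ran the other way, with 289 to 373.5 CPM in reporter-high and 336 to 470 in reporter-free cells, lower in the reporter-high cells of each of the 4 libraries.

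Within each library, basal-gate cells with and without Porcn UMIs also differed in some genes that differ between regions. Among thinned basal-gate cells, those with at least 1 Porcn UMI had more Tppp3, a tubulin-binding gene high in dorsal trachea, than those with none: 358 against 133 CPM in knockout dorsal, 63.8 against 12.8 in knockout ventral, 364 against 255 in control dorsal and 52.4 against 15.3 in control ventral trachea. Osr1, a transcription factor gene, was also higher in the Porcn-positive cells of each library. It stood at 59.4 against 46.5 in knockout dorsal and 34.5 against 18.2 in knockout ventral trachea. In controls it stood at 68.2 against 60.6 dorsally, where the intervals overlapped, and 30.2 against 19.1 ventrally. Eya4, a transcription regulator gene higher in ventral trachea, was lower in them: 5.28 against 17.4 in knockout dorsal, 65.5 against 98.1 in knockout ventral, 7.82 against 20.5 in control dorsal and 81.1 against 104 in control ventral trachea. Isl1 was likewise lower in each library, at 11.5 against 21.8 in knockout dorsal and 56.9 against 67.0 in knockout ventral trachea. The intervals overlapped in knockout ventral trachea. In controls Isl1 stood at 10.9 against 20.4 dorsally and 50.9 against 65.6 ventrally. Krt5 was 981 against 996 in knockout dorsal, 883 against 869 in knockout ventral, 1240.4 against 1422 in control dorsal and 917 against 902 in control ventral trachea. Krt14, a further basal keratin, was 4.49 against 4.44 in knockout dorsal, 52.9 against 103 in knockout ventral, 51.1 against 156 in control dorsal and 53.6 against 46.2 in control ventral trachea. These companion genes were chosen after their values were seen, and no test was made. The cells were split by their thinned counts. Median depths of Porcn-positive against other cells were 20924.5 against 19784 UMIs in knockout dorsal and 22780 against 24100 in knockout ventral trachea. In controls they were 16094 against 15267 dorsally and 23294 against 22939.5 ventrally.

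Between genotypes Porcn moved little compared with its regional gap in the epithelial gates. Within the Krt17 cluster, however, the knockout over control ratio was 1.90 (1.66 to 2.18) ventrally, from 56 knockout and 96 control cells. That was more than the cluster's dorsal over ventral ratio of 1.30 in knockouts, and dorsally it was 0.989. The knockout over control ratio in the basal gate was 0.921 (0.899 to 0.944) dorsally and 1.27 (1.17 to 1.38) ventrally, short of the 2-fold mark that 6.68% and 0.455% of genes tested passed in either direction. The dorsal ratio became 1.01 when a cell counted in every gate it passed. In the secretory gate it was 0.773 (0.757 to 0.789) dorsally and 0.819 (0.755 to 0.888) ventrally, with 4.38% and 0.892% of genes past 2-fold. In the ciliated gate it was 0.638 (0.556 to 0.729) dorsally, from 110 knockout cells, and 1.03 (0.869 to 1.23) ventrally, with 1.81% and 0.84% of genes past 2-fold. In the hillock gate the dorsal ratio was 1.26 (1.21 to 1.30), with 5.28% of genes past 2-fold, but it was 0.912 (0.865 to 0.960) within the cluster led by Serpinb2, Krt13 and Ly6g6c. The median log2 ratio of all genes tested was -0.20 in the dorsal basal and -0.01 in the ventral basal comparison, where Porcn had -0.12 and 0.34.

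**Figure D3:**
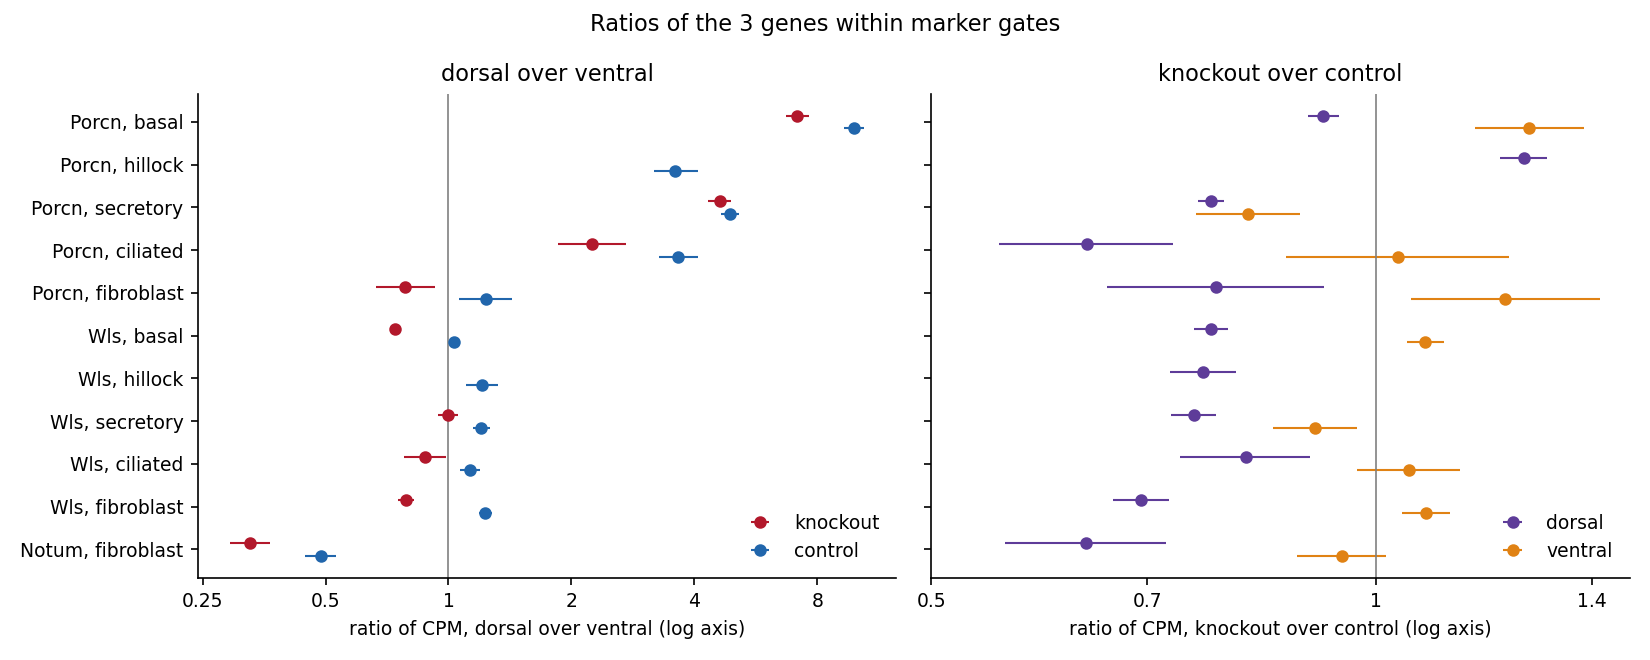
Ratios of Porcn, Wls and Notum (log axes) between libraries within marker gates, dorsal over ventral on the left (knockout and control) and knockout over control on the right (dorsal and ventral); points are ratios of CPM and lines are 95% conditional binomial intervals, for gates with at least 50 cells in both libraries. Porcn lies between 2.25 and 9.84 in epithelial gates on the left, while on the right all ratios lie between 0.636 and 1.27.

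Wls was present in every gate and had no regional gap like that of Porcn. Basal-gate cells had 304 CPM (297.5 to 310.4) in knockout dorsal, 411 (402 to 420.1) in knockout ventral, 393 (387 to 399.7) in control dorsal and 381 (374 to 388) in control ventral trachea. Knockout dorsal basal cells were the low ones and the other 3 libraries lay close together. The dorsal over ventral ratio was 0.740 (0.717 to 0.763) in knockouts and 1.03 (1.01 to 1.06) in controls, the control ratio turning to 0.968 when a cell counted in every gate it passed. At least 98.7% of basal-gate cells of each library held a Wls UMI, and 90.2% in knockout dorsal, 94.4% in knockout ventral, 94.2% in control dorsal and 92.9% in control ventral trachea did after thinning. Thinned secretory-gate cells had 43.2% to 51.6%.

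Fibroblast-gate cells had 163 CPM of Wls in knockout dorsal, 207 in knockout ventral, 235 in control dorsal and 191 in control ventral trachea. Ciliated-gate cells had 143 in knockout dorsal, 164 in knockout ventral, 176 in control dorsal and 155 in control ventral trachea. Hillock-gate cells had 157 in knockout dorsal, 206 in control dorsal and 170 in control ventral trachea. Secretory-gate cells had the lowest levels, 74.1 in knockout dorsal, 74.4 in knockout ventral, 98.5 in control dorsal and 81.9 in control ventral trachea. The basal gate led in all 4 libraries and the secretory gate came last, with the fibroblast gate leading the rest. The hillock interval overlapped that of the fibroblast and of the ciliated gate in knockout dorsal trachea, and that of the ciliated gate in control ventral trachea.

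Outside the gates, thyroid-like cells, found in the ventral libraries alone, had 268 CPM of Wls in 19 knockout and 233 in 306 control cells. T cell-like clusters had 135 in knockout dorsal, 149 in knockout ventral, 80.7 in control dorsal and 77.8 in control ventral trachea, with Porcn between 0 and 7.20 in the same clusters. Gland-like cells, also ventral alone, stood low for Wls (22.7 in knockout and 23.3 in control) and for Porcn (2.89 in knockout and 3.01 in control).

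Wls was lower in the knockout than in the control dorsal library in all 5 gates. The dorsal knockout over control ratio was 0.772 (0.752 to 0.793) in the basal, 0.763 (0.725 to 0.804) in the hillock, 0.752 (0.727 to 0.779) in the secretory, 0.816 (0.736 to 0.902) in the ciliated and 0.693 (0.663 to 0.724) in the fibroblast gate. Ventrally it was 1.08 (1.05 to 1.11) in the basal and 1.08 (1.04 to 1.12) in the fibroblast gate, with 0.909 (0.851 to 0.971) in the secretory and 1.05 (0.971 to 1.14) in the ciliated gate. The fibroblasts, which are not meant to lose Ctnnb1, had the lowest dorsal ratio. The median log2 ratio of all genes tested was itself -0.20 in dorsal basal and -0.12 in dorsal fibroblast cells, against -0.37 and -0.53 for Wls, and 4132 of 6434 and 5302 of 6728 genes had higher ratios than Wls. Within the Defb1 cluster, the ratio for Wls was 0.750 (0.722 to 0.779) dorsally and 1.34 (1.22 to 1.47) ventrally.

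The promoter of Wls is shown with the core motif of TCF/LEF factors marked, the factors through which beta-catenin acts. Any part of this motif in the Wls levels was not tested. Of the 3 genes, Wls was the 1 with an entry among the RefSeq promoters (build GRCm38.p6). The window is the 250 bases chr3:159839400-159839649, plus strand, up to the gene's start, with the capitals marking CTTTG, the core of the TCF/LEF motif, on either strand.
Wls: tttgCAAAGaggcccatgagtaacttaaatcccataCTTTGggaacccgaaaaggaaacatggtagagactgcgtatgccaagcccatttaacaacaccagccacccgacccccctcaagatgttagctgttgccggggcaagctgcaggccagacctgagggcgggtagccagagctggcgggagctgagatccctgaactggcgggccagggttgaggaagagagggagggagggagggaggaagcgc
The core occurred 2 times, 1 on each strand, and the matches do not overlap. It was found in 48.6% of 32851 windows of the same length, and 15.7% of them held at least as many matches, so its presence is common. The window's GC content was 58%, against a median of 52.4%.

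Porcn and Wls were counted in the same cells. Among thinned basal-gate cells, 70.4% in knockout dorsal, 22.6% in knockout ventral, 77.7% in control dorsal and 19.2% in control ventral trachea had UMIs of both. Cells with Wls alone made up 19.8%, 71.8%, 16.6% and 73.7% of these libraries' basal-gate cells, and cells with Porcn alone 8.33%, 0.937%, 4.88% and 1.38%. In the secretory gate Porcn alone was more frequent, at 35.7% in knockout dorsal, 12.5% in knockout ventral, 34.7% in control dorsal and 14.5% in control ventral trachea. Fibroblast-gate cells were mostly Wls alone (61.8% in knockout dorsal, 67.3% in knockout ventral, 71.9% in control dorsal and 64.9% in control ventral trachea). Over the 20 sums of 5 gates and 4 libraries, which share libraries and depth, Pearson's r of log2(CPM + 1) was -0.03 between Porcn and Wls, -0.74 between Porcn and Notum and 0.14 between Wls and Notum.

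Notum was found mainly in fibroblasts and in a chondrocyte-like cluster, and ventral fibroblasts had more of it than dorsal ones. In the fibroblast gate it stood at 19.2 CPM (17.3 to 21.1) in knockout dorsal, 58.7 (55.6 to 61.9) in knockout ventral, 30.1 (27.9 to 32.5) in control dorsal and 61.9 (59.2 to 64.6) in control ventral trachea, from 400, 1349, 671 and 2036 UMIs. Both ventral libraries lay above both dorsal ones. The dorsal over ventral ratio was 0.327 (0.291 to 0.365) in knockouts and 0.487 (0.445 to 0.531) in controls, where 7.42% of 6875 and 2.25% of 6920 genes tested were at least 2-fold lower dorsally, and 1.66% of 6586 in both genotypes. Between genotypes the ratio was 0.636 (0.561 to 0.721) dorsally and 0.948 (0.884 to 1.02) ventrally, with 6.29% and 1.58% of genes past 2-fold either way. The gate held other clusters in each library: one led by Ccl11, Dpep1 and Hmcn2 had 38.2% of it in knockout dorsal and 27.7% in control dorsal trachea, and one led by Ccl19-ps2, Pappa2 and Gm13889 had 37% in knockout ventral and 37.2% in control ventral trachea.

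Epithelial cells had next to no Notum. The basal gate held 0 UMIs in knockout dorsal, with a Poisson interval up to 0.131 CPM, and 2 UMIs in each of the knockout ventral, control dorsal and control ventral libraries. In the secretory gate 6 UMIs were found in knockout dorsal, 3 in knockout ventral, 3 in control dorsal and 0 in control ventral trachea, the last with an interval up to 0.149 CPM. The 33 UMIs of the control dorsal ciliated gate came from 0.389% of its 1287 cells, at a mean of 6.60 UMIs per positive cell. These counts give the background for the fibroblast shares of 11.2% in knockout dorsal, 20.5% in knockout ventral, 13.0% in control dorsal and 20.9% in control ventral trachea, where basal-gate cells, counted more deeply, had 0% to 0.263%. After thinning, the fibroblast shares were 8.36%, 18.3%, 12.6% and 18.5% in the same libraries.

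Notum sat in a minority of fibroblasts. The 5% of fibroblast-gate cells with most Notum held 74.2% of its UMIs in knockout dorsal, 56.2% in knockout ventral, 65.7% in control dorsal and 55.5% in control ventral trachea, and the richest cell held 15, 25, 11 and 20 UMIs. A cluster led by Hhip (a hedgehog-binding antagonist), Cyp2e1 and Spon1, with Col23a1 and Wnt16 among its leading genes, carried most of it. That cluster made up 9.23% of cells and 93.1% of Notum UMIs in knockout dorsal, 7.46% and 75.5% in knockout ventral, 5.35% and 65.5% in control dorsal, and 5.89% and 75.1% in control ventral trachea. Its Notum level was 69.5 CPM in knockout dorsal and 214 in knockout ventral trachea, and 97.2 in control dorsal and 234 in control ventral trachea. The dorsal over ventral ratio within the cluster was 0.325 (0.289 to 0.364) in knockouts and 0.416 (0.378 to 0.457) in controls, no nearer to 1 than in the whole gate. Positive cells made up 33.8% of the cluster in knockout dorsal, 67.2% in knockout ventral, 37.3% in control dorsal and 72.5% in control ventral trachea, while its share of the fibroblast gate was slightly larger dorsally (26.8%, 20.7%, 26.8% and 19.8% in the same libraries).

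A chondrocyte-like cluster led by Col2a1, Fmod and Wif1 was the second source, and there the regional order was not the same. Its Notum level was 134 CPM in 145 knockout ventral cells, 113 in 252 control dorsal and 91.9 in 302 control ventral cells, and knockout dorsal trachea held only 17 of these cells. The control dorsal over ventral ratio was 1.23 (1.04 to 1.47). It carried 11.7% of Notum UMIs in knockout ventral, 24.6% in control dorsal and 14.3% in control ventral trachea. A fibroblast cluster led by Ccl19-ps2, Pappa2 and Gm13889 had 15.3 CPM in knockout ventral, 6.34 in control dorsal and 14.8 in control ventral trachea, and 1 UMI in all in knockout dorsal trachea.

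**Figure D4:**
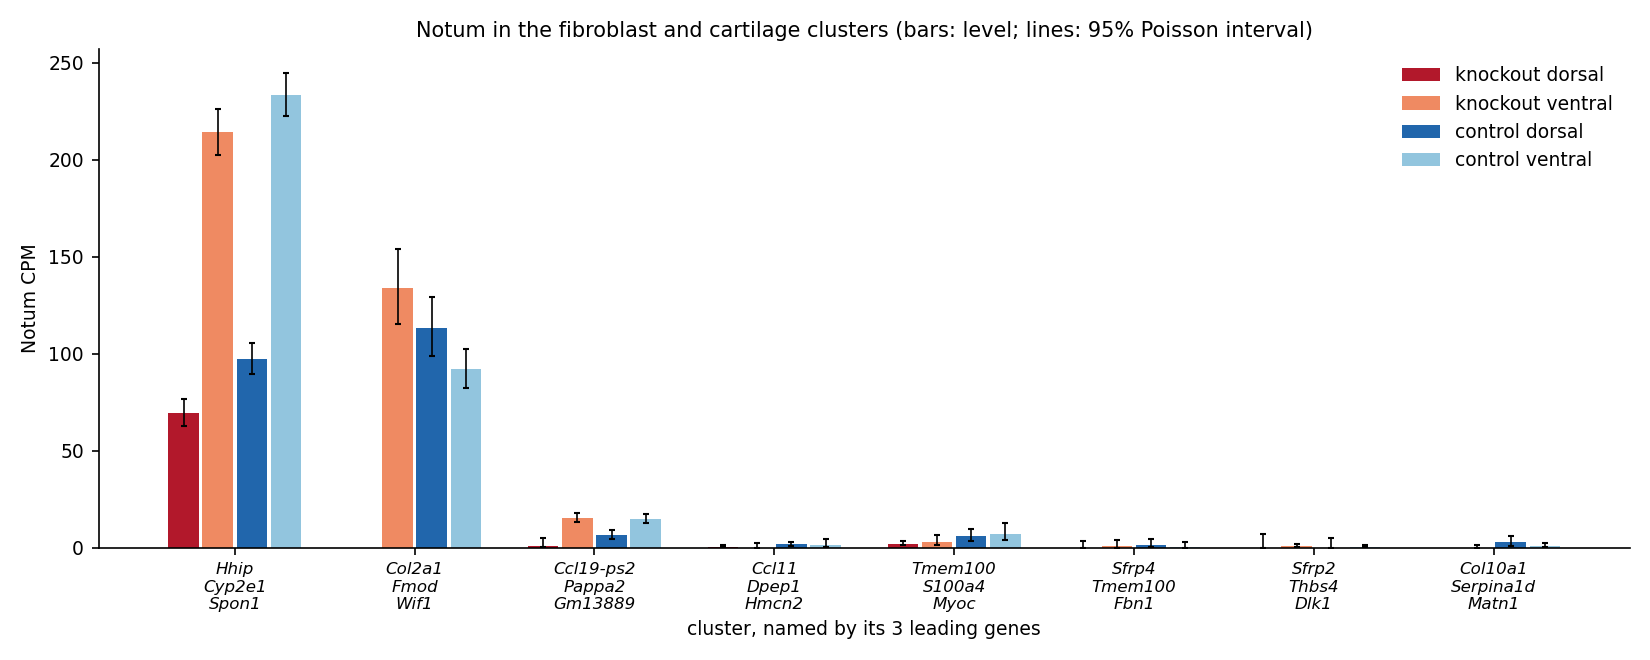
Notum level (CPM, bars from 0, with 95% Poisson intervals) in the fibroblast and cartilage clusters, each named by its 3 leading genes, in the 4 libraries; clusters with fewer than 50 cells in a library have no bar there. The Hhip cluster has 214 and 234 CPM in ventral and 69.5 and 97.2 in dorsal libraries, and in the Col2a1 cluster the 3 libraries shown lie between 91.9 and 134.

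Of 4 fibroblast groups set by listed subtype markers, Notum was highest in that with Col23a1 (48.3 CPM in knockout dorsal, 86.0 in knockout ventral, 59.1 in control dorsal and 82.7 in control ventral trachea). It was lowest in that with Prg4 or Kera, markers of the perichondrial side (4.73, 12.3, 10.8 and 16.3 in the same libraries). Fibroblasts with Pi16 or Dpp4, of the adventitia, had 19.3, 47.4, 25.7 and 48.2, and those with Lrat or Bmp5 had 24.0, 54.3, 38.2 and 56.2. Lrat and Bmp5 differed from each other: Lrat was 16.8 times higher in Notum-positive than in Notum-negative fibroblasts in knockout dorsal, 12.4 in knockout ventral, 13.1 in control dorsal and 5.13 in control ventral trachea, and Bmp5 0.808 to 1.28 times. The dorsal library was lower in each of these 4 marker groups and in either genotype, and a cell can belong to more than 1 of them.

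Notum-positive fibroblasts were set against the Notum-negative fibroblasts of the same library, as a description, since the counts define the groups. The genes highest in the positive cells in all 4 libraries included Bmp7, a BMP ligand (7.6 to 17.5 times), Col13a1 (7.57 to 11.8 times), Cyp2e1 (6.21 to 11.6 times), Hhip (5.47 to 9.30 times) and Tnfrsf19, a Wnt target gene (4.61 to 7.71 times). Thbs4, Lbp and Ccl11 were lowest, at most 0.102 of the level in negative cells. Among Wnt feedback genes Axin2 was 2.55 times higher in knockout dorsal, 2.03 in knockout ventral, 1.98 in control dorsal and 2.24 in control ventral trachea. Nkd1 was 2.0 to 3.24 times and Lgr5 2.17 to 4.21 times higher, and Bambi was at 0.710 to 0.852. The ligand Wnt16 was 6.35 times higher in knockout dorsal, 20.6 in knockout ventral, 5.85 in control dorsal and 34.4 in control ventral trachea, and Wnt4 was 9.62 to 12 times higher at a low level (10.8 to 25.7 CPM in positive cells). Wnt11 was lower in the positive cells, at 0.534 to 0.744. Wls was 1.11 to 1.31 times and Porcn 0.876 to 1.34 times the level in negative cells. Median depth in the 2 sets lay between 9246 and 13908 UMIs, and was higher for positive cells in 3 of the 4 libraries.

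The ligands that these genes act on were counted in the same sums. Of 19 Wnt ligands, 9 had at least 10 UMIs in the basal gate in each dorsal and ventral pair. Wnt4 had 315 CPM in knockout dorsal, 275 in knockout ventral, 331 in control dorsal and 299 in control ventral trachea in the basal gate, so its level did not split by region as that of Porcn did. Wnt7b had 22.4 in knockout dorsal, 15.6 in knockout ventral, 43.7 in control dorsal and 20.2 in control ventral trachea. Dorsal over ventral, 0 ligands were at least 2-fold higher and 4 lower in knockouts (median log2 ratio -0.65), and 1 was higher and 1 lower in controls (median -0.34). These medians weigh genes of few UMIs like the others. The 19 ligands summed to 376 CPM in knockout dorsal, 346 in knockout ventral, 437 in control dorsal and 389 in control ventral trachea. Over all genes tested from 20 CPM upward, 6.35% in knockouts and 2.7% in controls were at least 2-fold lower dorsally, with medians of -0.12 and 0.09. List genes needed only 10 UMIs, and of all genes past that lower minimum 4.42% were higher and 10.7% lower in knockouts, and 3.88% higher and 12.7% lower in controls (medians -0.15 and -0.06). Those with an interval past 2-fold were Wnt3a in knockouts (ratio 0.215) and Wnt5a in controls (0.161), both under 2 CPM. Knockout over control, Wnt5b was lower dorsally (0.395, 0.344 to 0.453), at 9.70 CPM in the knockout and 24.5 in the control library. It was the 1 ligand of 8 past 2-fold there, and ventrally 0 of 9 passed in either direction. Of all genes at the lower minimum, 6.27% were higher and 7.03% lower dorsally, and 1.96% higher and 3.94% lower ventrally.

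The fibroblast gate had other ligands. Wnt11 stood at 45.7 CPM in knockout dorsal, 48.2 in knockout ventral, 63.7 in control dorsal and 61 in control ventral trachea, and Wnt9a between 33.8 and 43.0. Wnt16 had 7.04 in knockout dorsal, 31.9 in knockout ventral, 23.9 in control dorsal and 73.1 in control ventral trachea, lower dorsally (0.221 in knockouts and 0.327 in controls) and lower in knockouts (0.294 dorsally and 0.436 ventrally). Wnt2 went the other way by region, at 3.33 times the ventral level in knockouts and 3.03 times in controls, from 1.96 to 7.09 CPM. Of 11 ligands measured, 1 was at least 2-fold higher and 3 lower dorsally in knockouts, and 1 higher and 1 lower in controls (median log2 ratios -0.35 and -0.20). Over all genes tested 0.945% and 1.2% were at least 2-fold higher dorsally in knockouts and controls, beside the 7.42% and 2.25% lower, with medians of -0.12 and 0.02. With the list's minimum of 10 UMIs, 2.82% were higher and 18.5% lower in knockouts, and 2.45% higher and 11.7% lower in controls (medians -0.28 and -0.11).

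The remaining genes of the secretion route did not follow Porcn. All 14 genes of Wls recycling and export (retromer subunits such as Vps35, sorting nexins, Tmed cargo receptors and Sar1 coat genes) were measured in the basal gate, and 0 passed 2-fold in any of the 4 comparisons, with medians of 0.01 and 0.14 dorsal over ventral in knockouts and controls. Of 6 measured genes of acyl donor supply, 0 passed 2-fold by region in knockouts and 1 was lower in controls. Of 8 measured acyltransferases related to Porcn, 1 was higher and 1 lower dorsally in knockouts and 2 were higher in controls. Of all genes at the list minimum, 4.42% were higher and 10.7% lower in knockouts, and 3.88% higher and 12.7% lower in controls. Soat2, which esterifies cholesterol, was higher dorsally in knockouts (5.18, 2.21 to 14.8) at 1.66 against 0.321 CPM, and it was the 1 gene of this list with an interval past 2-fold; in controls its ratio was 3.11 (1.91 to 5.28).

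Genes that act on Wnt outside the cell, as Notum does, were counted by the same rule. In the basal gate 0 of 11 measured were at least 2-fold higher and 3 lower in knockouts (median log2 ratio -0.64), and 1 of 13 higher and 7 lower in controls (median -1.15), where 10.7% and 12.7% of all genes were lower at this minimum. The list summed there to 71.6 CPM in knockout dorsal, 112 in knockout ventral, 111 in control dorsal and 121 in control ventral trachea. The hillock gate in controls had 3 higher and 1 lower of 9 (median 0.11), where 10.1% of all genes were higher and 7.6% lower. The secretory gate in controls had 3 higher and 5 lower of 14 (median 0.03), where 4.65% were higher and 8.07% lower. Gpc6, a glypican, had ratios of 0.137 and 0.406 in knockouts and controls. The antagonist Sfrp2 had 0.0969 in the basal gate of controls, at only 0.102 against 1.05 CPM. Control fibroblasts held 51.1 CPM of Sfrp2 dorsally and 555 ventrally. No correction for RNA from other cells was made, and the part of such RNA in these low basal counts was not tested. In the fibroblast gate 0 of 17 were higher and 5 lower dorsally in knockouts (median -0.87), and 2 were higher and 3 lower in controls (median -0.27), where 18.5% and 11.7% of all genes were lower. Knockout over control in the basal gate, 0 of 11 were higher and 3 lower dorsally, among them Gpc6 (0.357) and Dkk3 (0.385). Ventrally 0 of 12 were higher and 2 lower. Of all genes at this minimum, 7.03% were lower dorsally and 3.94% ventrally. Sfrp2 had 26.9 CPM in knockout dorsal against 211 in knockout ventral fibroblasts (ratio 0.128), and 51.1 in control dorsal against 555 in control ventral fibroblasts (ratio 0.0920). A cluster led by Sfrp2, Thbs4 and Dlk1 made up 2.69% of the fibroblast gate in knockout dorsal and 23.8% in knockout ventral trachea. In controls it made up 3.69% dorsally and 22.6% ventrally, and its part in the Sfrp2 ratios was not tested. Dorsal knockout over control, 8 of 16 fibroblast genes of this list were at least 2-fold lower and 0 higher (median -0.96), where 10.9% of all genes were lower and 3.99% higher at the same minimum (median -0.15), with Sfrp4 at 0.107, Frzb at 0.116 and Wif1 at 0.223, all of them Wnt-binding antagonists. Ventrally 1 of 17 was higher and 4 lower (median -0.19), where 2.82% of all genes were higher and 4.66% lower. The fibroblast gates of the dorsal libraries differed in their mix of cells. A cluster led by Col2a1, Fmod and Wif1 made up 0.299% of the gate in knockout dorsal and 4.13% in control dorsal trachea. One led by Sfrp4, Tmem100 and Fbn1 made up 3.28% and 5.53%. The part of this mix in the dorsal ratios was not tested.

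Receptors and feedback targets completed the pathway. In the basal gate 0 of 13 receptors were at least 2-fold higher and 1 lower dorsally in knockouts, and 1 of 14 higher and 1 lower in controls, none with an interval past 2-fold. Of feedback targets 0 of 11 were higher and 4 lower in knockouts (median -0.84), and 1 of 12 higher and 4 lower in controls (median -0.66), beside the 10.7% and 12.7% of all genes lower at this minimum. The feedback targets summed to 261 CPM in knockout dorsal, 295 in knockout ventral, 304 in control dorsal and 281 in control ventral trachea. Znrf3, a ligase that removes Frizzled, had a ratio of 0.458 in knockouts (34.8 against 76.0 CPM), and the receptor gene Lgr6 had 2.10 in controls (161 against 76.4). Axin2 stood at or under 1.02 CPM in the basal gate of all 4 libraries. Knockout over control, 0 of 10 feedback targets were higher and 1 lower dorsally (median -0.06), and 0 of 12 higher and 1 lower ventrally (median 0.05), where 7.03% and 3.94% of all genes were lower. In fibroblasts 0 of 14 were higher and 6 lower dorsally in knockouts (median -0.88), with Nkd1 at 0.399 and Lgr5 at 0.362. In controls 0 were higher and 1 lower (median -0.09). Of all genes in fibroblasts, 18.5% were lower in knockouts and 11.7% in controls at this minimum (medians -0.28 and -0.11).

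**Figure D5:**
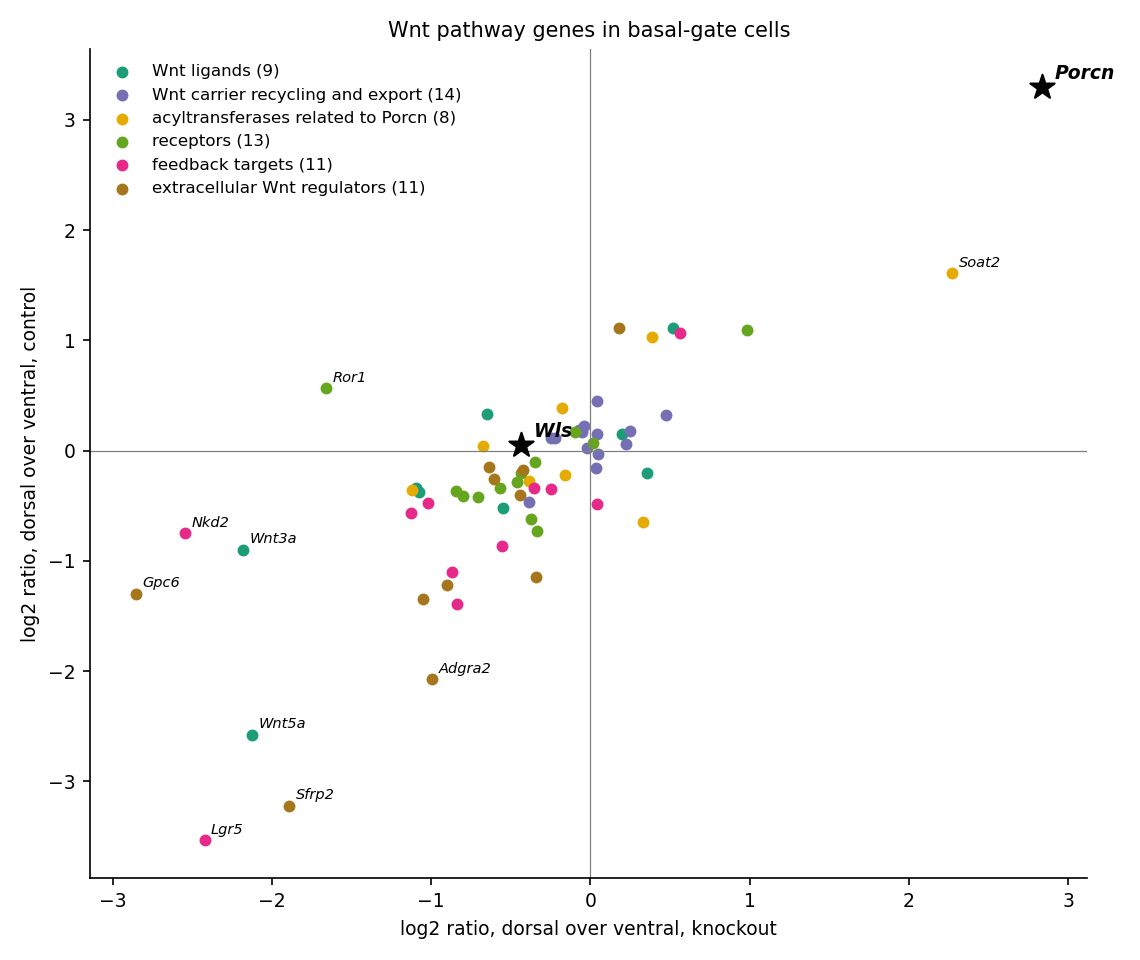
Log2 dorsal over ventral ratio in knockout (horizontal) and control (vertical) basal-gate cells for Porcn, Wls (stars) and the measured genes of 6 Wnt lists (points, number in the legend); genes past 1.5 on either axis are named. Porcn lies at 2.83 and 3.30, above all plotted list genes on both axes, and Wls near the origin at -0.43 and 0.05.

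Genes with a pattern most like each member were ranked over the 20 sums of gate and library, among 16563 genes. For Porcn these were F5 (Pearson's r 0.90), Endod1 (0.88), Lgals3 (0.88), Serinc2 (0.87) and Pdlim1 (0.87), and 4 of the 5 were also among the first 5 by Spearman's rho. F5, coagulation factor V, had 54.1 CPM in knockout dorsal, 2.73 in knockout ventral, 113 in control dorsal and 7.78 in control ventral basal-gate cells. Not all of the others shared this gap. Endod1 had 48.5, 48.0, 59.9 and 46.4 in the same libraries, and Serinc2 had 72.9, 51.9, 89.2 and 48.7. Lgals3 had 2291, 759, 3075 and 1112, and Pdlim1 had 170, 74.8, 237 and 86.0. For Wls they were Eif4b, Luzp1, Tmem39b, Tiparp and Ankrd11 (r 0.95 to 0.97, 2 of 5 shared with Spearman's rho). For Notum they were Dchs2, Fli1, Cc2d2b, Pcdhb9 and Gdf10 (r 0.99 each, 0 of 5 shared), all near 0 in epithelial sums, and Gdf10, a TGF-beta family ligand, had 72.6 CPM in knockout dorsal, 305 in knockout ventral, 118 in control dorsal and 382 in control ventral fibroblasts. The sums share libraries and depth, so these are descriptions.

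On chromosome X Porcn is overlapped by the annotated gene Gm33135 and flanked by Ebp and Ftsj1 (RefSeq, GRCm38.p6). Ebp, which encodes a sterol isomerase, shared part of the regional pattern, with 113 CPM in knockout dorsal, 40.8 in knockout ventral, 116 in control dorsal and 40.1 in control ventral basal-gate cells. Its dorsal over ventral ratios were 2.77 (2.56 to 3.0) in knockouts and 2.89 (2.71 to 3.09) in controls. Ftsj1 had 25.7 in knockout dorsal, 17 in knockout ventral, 21.9 in control dorsal and 15.6 in control ventral trachea. The X-linked Pgk1, Rbm3 and Wdr13 had basal ratios between 0.746 and 1.32 over both genotypes, and Hprt 1.42 in knockouts and 1.35 in controls. Over all cells, Xist stood at 324 CPM in knockout dorsal, 344 in knockout ventral, 390 in control dorsal and 389 in control ventral. The Y-linked Ddx3y, Uty, Eif2s3y and Kdm5d each had 0 to 4 UMIs per library. Reads that pass the border of neighbouring genes cannot be told apart by gene in these counts. In fibroblasts Ebp had 56.4 in knockout dorsal, 44.9 in knockout ventral, 51.4 in control dorsal and 37.0 in control ventral trachea. Beside Notum, Aspscr1 stood at 25 to 28.3 CPM of fibroblast-gate cells and did not follow the regional order of Notum.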

How the data were processed

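Filtered gene-by-cell count matrices of 4 libraries were deposited by the authors, made from Chromium GEM-X Single Cell 5′ v3 libraries with Cell Ranger 10.0.0 on GRCm39, per the submitters' processing notes and the labels' protocols. No source used here gives the annotation release. The deposited values are UMI counts, unnormalised and whole in every entry, and a UMI from a 5′ end is not scaled by gene length, so levels are not compared between genes.

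A barcode was kept from 500 genes upward unless mitochondrial UMIs exceeded 15%. Doublets were scored with Scrublet, and the highest-scoring barcodes were removed at 0.4% per 1000 barcodes in every library (153 in knockout dorsal, 181 in knockout ventral, 702 in control dorsal and 380 in control ventral trachea), because its automatic threshold differed between libraries. Gates needed at least 1 Trp63 and 3 Krt5 UMIs (basal), 3 each of Krt13 and Krt4 (hillock), 3 Col1a2 (fibroblast), 200 Scgb1a1 per 10000 UMIs (secretory) or 3 Tmem212 per 10000 (ciliated). Hillock cells passing the basal or secretory cut stayed hillock, and other cells of several gates were left out (32, 9, 78 and 25 in the same libraries). Leiden clusters (resolution 1, 30 components, 20 neighbours, 2500 variable genes without the 3 genes) served to show which cells a gate held.

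UMIs were summed per gate and library and divided by the gate's total, as CPM (UMIs per 1000000). Levels have exact Poisson, shares Clopper-Pearson and ratios conditional binomial intervals of 95%. No test was possible with single libraries; called means a ratio of at least 2. Named were the 3 genes, counts of 7 Wnt lists (a gene measured with at least 10 UMIs in 1 library of a pair) with examples whose interval lay past 2-fold, and the 5 genes most like each member. The members and lists were chosen with earlier results of these data known. The interval script was tested on simulated data. Alternatives were depth and doublet filters, gate cuts, thinning, clusters in place of gates, and median-ratio size factors. Software was Python 3.11.15, numpy 2.4.6, scipy 1.17.1, pandas 2.3.3, scanpy 1.11.5, leidenalg 0.10.2 and matplotlib 3.10.9.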

Additional observations from a re-analysis of the deposited data

Results flagged for a closer look

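In 8 cases a gene's ratio lay on opposite sides of 1 in the 2 pairs of libraries of the same contrast, with both intervals apart from 1; cases where an interval held 1 are not listed. None of these differences was tested. Porcn in the basal gate was lower in the knockout dorsally (0.921) and higher ventrally (1.27). In the fibroblast gate Porcn was lower dorsally than ventrally in knockouts (0.785) and higher in controls (1.23), and seen by genotype it was lower in the knockout dorsally (0.779) and higher ventrally (1.22). These fibroblast levels rest on 243 to 399 Porcn UMIs per library, and the dorsal over ventral ratio in knockouts ranged from 0.780 to 1.05 over the alternatives.

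Wls in the basal gate had a dorsal over ventral ratio of 0.740 in knockouts and 1.03 in controls, and a knockout over control ratio of 0.772 dorsally and 1.08 ventrally. In the ciliated gate its dorsal over ventral ratio was 0.876 in knockouts and 1.13 in controls. In the fibroblast gate it was 0.788 in knockouts and 1.23 in controls, with knockout over control ratios of 0.693 dorsally and 1.08 ventrally. The knockout dorsal library was the low one in each of these Wls values. The 4 ratios of a gate share their libraries, so the regional and the genotype view of 1 gate are not separate observations.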

How the results depend on the processing

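No paired analysis was possible because each group is 1 library and the labels carry no replicate numbers. Over the basal contrasts of Porcn and Wls, the fibroblast contrasts of Notum and the counts of genes past 2-fold, 86 values stayed within their interval (counts within 1.5 times) under an alternative, 46 moved and 0 called values changed sign. A minimum of 1000 genes per barcode, doublets kept and looser gates moved 0 of them. With stricter gates Porcn was 8.60 dorsal over ventral in knockouts, and 0.968 dorsally and 1.08 ventrally knockout over control. With a cell counted in every gate it passed, Porcn was 8.96 dorsal over ventral in controls and 1.01 knockout over control dorsally, and Wls was 0.690 in knockouts and 0.968 in controls dorsal over ventral. Thinned, Porcn was 5.87 dorsal over ventral in knockouts and 0.891 dorsally and 1.52 ventrally knockout over control, Wls was 0.769 dorsal over ventral in knockouts, and Notum was 0.543 dorsal over ventral in controls and 1.04 knockout over control ventrally. With clusters as classes, dorsal over ventral Porcn was 6.58 in knockouts and 8.40 in controls and Wls 0.701 in knockouts, and knockout over control Porcn was 0.971 and Wls 0.750 dorsally and Notum 0.868 ventrally. Median-ratio size factors, which shift log2 ratios by 0.17 (basal) and 0.21 (fibroblast) dorsal over ventral in knockouts 0.13 in dorsal fibroblasts and 0.11 in dorsal secretory cells knockout over control, and -0.15 in hillock cells dorsal over ventral in controls, gave dorsal over ventral Porcn 8.01, Wls 0.830 and Notum 0.379 in knockouts and Wls 1.06 in controls, and dorsal knockout over control Porcn 0.975 and Wls 0.818.

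Restricting basal-gate cells to 1 cluster was chosen after seeing the data. In the Krt17 cluster control dorsal over ventral ratios were 2.02 (Porcn) and 1.07 (Wls), and Wls was 0.746 knockout over control dorsally. In the Apoc1 cluster the control ratios were 5.16 (Porcn) and 1.13 (Wls). In the Defb1 cluster Porcn was 4.53 in knockouts and 8.67 in controls dorsal over ventral and 1.76 knockout over control ventrally, and Wls was 0.783, 1.34 and 1.31 in the same comparisons. In the Hhip cluster, restricted to the fibroblast gate, Notum was 0.414 dorsal over ventral in controls and 0.771 knockout over control dorsally. The cause of these moves was not tested. Without the level filter far more genes passed 2-fold, since those with few UMIs then enter: in the basal gate 7058 (491 with the filter) and 7393 (320) dorsal over ventral in knockouts and controls, and 6714 (430) and 5320 (29) knockout over control dorsally and ventrally; in the fibroblast gate 8546 (575), 7279 (239), 7098 (423) and 5734 (109) in the same order. Outside fibroblasts a gate of 8 to 2695 cells held 0 to 33 Notum UMIs, too few for ratios.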

Other observations

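Cells outside the 5 gates carried a good part of Porcn in the ventral libraries, 33.8% of its UMIs in knockout ventral and 34.7% in control ventral trachea, against 13.8% in knockout dorsal and 18.3% in control dorsal trachea. Their Porcn level was 202 CPM in knockout dorsal and 19.7 in knockout ventral trachea, and 324 in control dorsal and 22.3 in control ventral trachea, so the dorsal and ventral libraries also stood apart there. Cartilage-like clusters had more Porcn dorsally, at 25.1 CPM in 37 knockout dorsal cells and 18.9 in control dorsal trachea, than ventrally, at 5.87 in knockout and 6.84 in control trachea. Dendritic-like clusters had 2.51 to 5.06 in all 4 libraries.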
